A study of Mus musculus and Homo sapiens with 15 samples.

Results

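RBFOX2-INSCRIBE was compared with enzyme-only editing in mouse brain, separately for exons and introns. The comparison rests on 6 of the 15 libraries of the series, 3 RBFOX2-INSCRIBE and 3 enzyme-only, and 3 buffer-only brain libraries give the background without enzyme. All 9 libraries came from single coronal brain slices of 2-month-old female C57BL/6J mice, fixed with paraformaldehyde per the labels and permeabilised. RBFOX2-INSCRIBE slices received a rabbit antibody to RBFOX2 and then a recombinant fusion of rat APOBEC1 with a nanobody against rabbit IgG. Enzyme-only slices received the fusion without the antibody, and buffer-only slices received neither. The methods of the study give 2 mice, while its reporting summary says that only a single mouse was needed, so slices share animals. Which slice came from which mouse is not given in the sources used here. All p-values below therefore measure the spread between slices.

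RBFOX2 is an RNA-binding protein of the RBFOX family that recognises UGCAUG and regulates alternative splicing from intronic sites next to exons. It also binds 3ʹ-UTRs, and neurons express its paralogs Rbfox1 and Rbfox3 as well, which bind the same sequence. APOBEC1 deaminates cytidine to uridine, preferably after A or U. In INSCRIBE an edited C is meant to mark an RNA within reach of the antibody-bound protein. Reads with this change also occurred without antibody and without enzyme. The paper ascribes those of buffer-only controls to damaged RNA or to errors of reverse transcription or PCR. An edited read is a sequencing read with T at a genomic C. Edits in introns report on unspliced RNA, and edits in exons report mostly on mature mRNA or spliced non-coding RNA.

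Sequence windows of 9 gained sites are printed here. Each is the genomic sequence of GRCm38 on the strand of the gene, 5ʹ to 3ʹ, with T standing for U, and the capitals mark TGCATG and the edited C.
Chn1 exon: aactcaagctaCTGCATGattacccctttt
Rbfox1 intron: cctcttctccaCTGCATGccccttccatat
Meg3 exon: caCactgcctggTGCATGgtccctgtcatg
Rap1gap intron: cacctcagaCacTGCATGgagtgctctgcc
Tenm2 intron: tgttcttcagcaTGCATGaatcctCaagtt
Snap25 intron: atgtgtagatttTGCATGcacgaCatcaca
Meg3 exon, highest gain: aaagccagtggtgaCttcaactgactttt
Ppp3ca exon, highest gain: gaaatgtatgtataCtggcgtgtgcttta
Trim37 exon, highest gain: tctttgaaatatgaCgatagaccaaattt
The windows lie at chr2:73612766-73612795 (Chn1, minus strand, 3ʹ-UTR) and chr16:7293633-7293662 (Rbfox1, plus strand, intron). In both the edited C directly precedes the motif. The Meg3 window with the motif lies at chr12:109566736-109566765 on the plus strand in an exon of a non-coding RNA. The Rap1gap, Tenm2 and Snap25 windows are intronic, at chr4:137722881-137722910 (plus strand), chr11:36812269-36812298 (minus strand) and chr2:136770804-136770833 (plus strand). The last group shows the sites with the highest gain of their genes, at chr12:109566294-109566322 for Meg3, chr3:136936310-136936338 for Ppp3ca and chr11:87218872-87218900 for Trim37, all on the plus strand. These hold no TGCATG, and the nearest one was 440, 98 and 132 nt away. The windows with TGCATG come from clusters whose marked C lay inside the window, so its nearness to the motif follows from this choice. In other clusters with the motif the strongest C lay at −107 nt (Arpp21) or 142 nt (Kcnma1). In RBFOX2-INSCRIBE the marked C held only 1, 1 and 2 reads in Rap1gap, 0, 2 and 3 in Tenm2 and 0, 5 and 3 in Snap25.

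After the filter of the study (site score above 0.5, edited fraction below 0.8), RBFOX2-INSCRIBE libraries held 295672 to 339567 edited reads, enzyme-only libraries 267277 to 290808 and buffer-only libraries 193252 to 262593. Between 93.3% and 95.4% of them lay inside the edit clusters of their own library, whose labels name the gene and the compartment. Of the edited reads labelled exon or intron, 58.9%, 61.3% and 55.0% carried an intron label in RBFOX2-INSCRIBE, against 48.8%, 51.8% and 51.3% in enzyme-only slices (exact two-sided permutation p = 0.1, the smallest that 3 against 3 libraries can give). The groups did not overlap, but buffer-only slices had 59.8%, 52.0% and 54.4%, and the first of these lay within the range of RBFOX2-INSCRIBE. Intronic sites were thinly covered, with a median of 11 to 13 covering reads in RBFOX2-INSCRIBE and 10 to 11 in enzyme-only slices. Exonic sites had medians of 35 to 37 in RBFOX2-INSCRIBE and 36 to 37 in enzyme-only slices.

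Markers of striatal neurons were higher in RBFOX2-INSCRIBE in intron edited reads and in cover, and overlapped in exon edited reads. Of 19 striatal marker genes, listed with earlier results of these data known, all had exon edits and 16 had intron edits in the 6 libraries. Their summed intron level, in CPM (edited reads relative to the library's total, scaled), was 2054 to 3091 CPM in RBFOX2-INSCRIBE, 1039 to 1431 CPM in enzyme-only and 1157 to 1430 CPM in buffer-only slices. Their summed exon level overlapped, with 606 to 868 CPM in RBFOX2-INSCRIBE and 758 to 921 CPM in enzyme-only slices, and the 10 members tested in exons had a median log2 change of −0.62. Covering reads, which do not depend on editing, were compared at exon positions listed in at least 2 libraries of each group. Over 796 genes the median log2 ratio of RBFOX2-INSCRIBE over enzyme-only was −0.12, while the 3 striatal markers with such positions (Ppp1r1b, Pde10a and Adcy5) had 0.65, 0.74 and 0.54. The 4 oligodendrocyte markers tested in introns had a median log2 change in edited reads of −0.34, against 0.28 over all intron rows, while the exon cover of 3 such markers had a median log2 ratio of −0.11, close to that of all genes. More cells of a type and more RNA per cell cannot be told apart in these bulk slices. The part of this difference in the results for striatal genes below was not tested.

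Edited reads lay closer to UGCAUG in RBFOX2-INSCRIBE in both compartments. Within 50 nt of the motif fell 4.32%, 3.83% and 4.52% of exon edited reads in RBFOX2-INSCRIBE, against 2.86%, 2.79% and 3.01% in enzyme-only slices. Buffer-only slices had 2.30%, 2.33% and 2.45%. In introns the share was 6.92%, 6.33% and 7.22% in RBFOX2-INSCRIBE, against 4.22%, 4.29% and 4.30% in enzyme-only slices and 4.16%, 4.17% and 4.13% in buffer-only slices. Neither compartment had overlapping groups, and each exact permutation p was 0.1. The gain was 1.46-fold in exons and 1.60-fold in introns, and since these are shares within a compartment, the total of edited reads does not enter them.

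The C directly before UGCAUG, with the motif completing CUGCAUG, gained most. It took 0.240%, 0.177% and 0.228% of exon edited reads in RBFOX2-INSCRIBE (311, 219 and 283 reads), against 0.0658%, 0.0776% and 0.0759% in enzyme-only slices (87, 102 and 93 reads), a 2.94-fold difference. In introns it took 0.262%, 0.203% and 0.264% in RBFOX2-INSCRIBE, against 0.0658%, 0.0666% and 0.0683% in enzyme-only slices, a 3.64-fold difference. Of the exon reads at this position, 40, 27 and 39 in RBFOX2-INSCRIBE came from the Chn1 site alone. The 9, 6 and 3 enzyme-only reads listed at that site failed the score and are not counted. The C inside the motif did not gain, with ratios of 1.01 in exons and 0.93 in introns. The gain was larger after the motif than before it at 11 to 50 nt. At 11 to 50 nt after the motif the ratio was 1.495 in exons and 1.67 in introns, against 1.27 and 1.35 at 11 to 50 nt before it, with no test of this asymmetry.

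**Figure D1:**
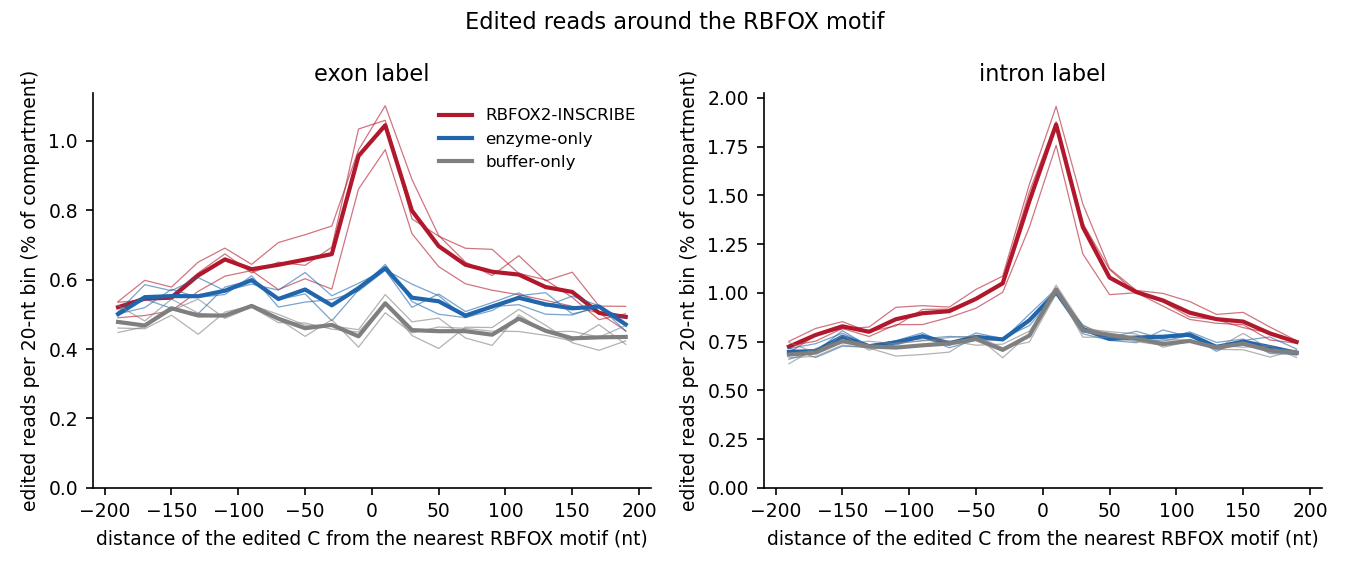
Edited reads by distance of the edited C from the nearest UGCAUG, in bins of 20 nt, as percent of the edited reads of exons (left) or introns (right). Thin lines are libraries and thick lines group means; in the bin just after the motif the 3 RBFOX2-INSCRIBE libraries lay above all enzyme-only and buffer-only libraries.

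The exon gain was uneven over transcript regions. In 3ʹ-UTRs 7.01%, 6.40% and 7.19% of edited reads were within 50 nt of UGCAUG in RBFOX2-INSCRIBE, against 4.25%, 4.28% and 4.56% in enzyme-only slices, a ratio of 1.57. Exons of non-coding transcripts had 2.93%, 2.49% and 3.13% in RBFOX2-INSCRIBE, against 1.53%, 1.40% and 1.53% in enzyme-only slices, a ratio of 1.92. Coding sequence changed least, with 2.71%, 2.84% and 2.89% in RBFOX2-INSCRIBE and 2.495%, 2.46% and 2.60% in enzyme-only slices. Each region had a permutation p of 0.1. The share of exon edited reads that lay in 3ʹ-UTRs itself was 36.5%, 32.0% and 37.3% in RBFOX2-INSCRIBE and 34.75%, 34.97% and 35.17% in enzyme-only slices, and the groups overlapped (exact permutation p = 1).

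The base before the edited C separated the slices with enzyme from those without it, while RBFOX2-INSCRIBE and enzyme-only slices overlapped. Among exon sites 62.5%, 58.4% and 63.8% had A or U before the C in RBFOX2-INSCRIBE and 60.2%, 61.5% and 61.9% in enzyme-only slices (exact permutation p = 0.8), with 48.0% to 48.7% in buffer-only slices. Among intron sites the values were 66.7%, 63.2% and 67.8% in RBFOX2-INSCRIBE and 62.1%, 63.3% and 64.5% in enzyme-only slices (exact permutation p = 0.3), with 54.1% to 54.4% in buffer-only slices. RBFOX2-INSCRIBE replicate 2 was the lowest of its group in both compartments. In introns replicates 1 and 3 lay above all enzyme-only libraries, and with 3 libraries per group the test cannot exclude a difference.

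For genes, edited reads that passed the filter were summed per gene and compartment and tested with the edgeR quasi-likelihood test on 4332 exon rows and 2796 intron rows. The exon rows of 13 genes rose and those of 8 fell at a Benjamini-Hochberg adjusted p under 0.05, and the median exon change was −0.26 on the log2 scale. The calls were 0.3% and 0.185% of the exon rows tested. At an unadjusted p under 0.05, 83 rows were higher (1.92%) and 402 lower (9.28%). Non-overlapping groups were more common, with all 3 RBFOX2-INSCRIBE libraries above all 3 enzyme-only libraries in 97 exon rows (2.24%) and below them in 613 (14.2%). These values are relative to the edited reads of exons and introns together, and the intron share was higher in RBFOX2-INSCRIBE. With exons fitted apart from introns, the median exon change was −0.00768, and 20 exon rows rose and 2 fell. The median of −0.26 therefore depends on the shared scale and does not by itself show a broad fall in exon editing.

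The 13 exon rows that rose included 2 of the 10 listed long non-coding RNAs that were tested and 3 of the 22 calcium-signalling genes tested. Both lists were chosen with earlier results of these data known, so these counts are a description and carry no test. Meg3, an imprinted long non-coding RNA abundant in neuronal nuclei, had 776, 413 and 637 CPM of exon edited reads in RBFOX2-INSCRIBE, against 9.37, 50.6 and 24.5 CPM in enzyme-only slices. Buffer-only slices had 44.2, 20.6 and 64.0 CPM. The change was 4.40 ± 0.33 on the log2 scale (SE; edgeR adjusted p = 1.27e-13), and the groups did not overlap. Counting every listed site placed by the annotation, it was 0.84. Oip5os1, the long non-coding RNA also called Cyrano, had 525, 323 and 550 CPM in RBFOX2-INSCRIBE and 46.9, 120 and 108 CPM in enzyme-only slices (log2 change 2.34). Rab10os, a transcript antisense to the GTPase gene Rab10, had 186, 242 and 176 CPM in RBFOX2-INSCRIBE and 32.8, 55.2 and 58.7 CPM in enzyme-only slices (log2 change 2.03). Counting every listed site placed by the annotation, the changes were 0.84 for Oip5os1 and 1.88 for Rab10os. The labels name both a stranded and an unstranded kit. The paper describes the stranded kit in its standard protocol and another kit for ultra-low RNA input. It does not name the kit of the brain slices separately. If strand was not kept, reads of Rab10os and Rab10 may not be told apart.

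Among the 36 calcium-signalling genes listed, 22 were tested in exons, and 3 rose with none falling, beside 0.3% of all exon rows that rose. The list was chosen with earlier results known and holds Ppp3ca, an example gene of the study, so this contrast carries no test. One of the 3, Camk2a, was not called with every listed site placed by the annotation. Ppp3ca, the catalytic subunit of the phosphatase calcineurin, had 368, 357 and 674 CPM in RBFOX2-INSCRIBE, against 9.37, 23.0 and 53.8 CPM in enzyme-only slices (log2 change 4.002 ± 0.354, adjusted p = 2.42e-11). Its groups were far apart, and 96.0% of its RBFOX2-INSCRIBE reads lay in the 3ʹ-UTR. Atp2a2, which encodes the calcium pump of the endoplasmic reticulum, had 174, 85.1 and 273 CPM in RBFOX2-INSCRIBE and 46.9, 50.6 and 34.2 CPM in enzyme-only slices (log2 change 1.98). With every listed site placed by the annotation the changes were 0.77 for Ppp3ca and 0.41 for Atp2a2. Camk2a, the alpha subunit of calcium/calmodulin-dependent kinase II, had 92.9, 102 and 78.5 CPM in RBFOX2-INSCRIBE and 4.69, 0 and 29.3 CPM in enzyme-only slices. Its buffer-only libraries reached 11.04, 89.4 and 135 CPM, so RBFOX2-INSCRIBE was not above the slices without enzyme. The median log2 change of the 22 genes was 0.01, beside −0.26 over all exon rows.

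The other exon rows that rose encode signalling proteins and regulators. Ywhag, which encodes 14-3-3 gamma, a phosphoserine-binding adaptor, had 125, 123 and 55.4 CPM in RBFOX2-INSCRIBE and 9.37, 9.20 and 4.89 CPM in enzyme-only slices (log2 change 3.595, or 3.85 above the exon median), but 0.09 and not called with every listed site placed by the annotation. Trim37, a RING-domain ubiquitin ligase, had 610, 400 and 605 CPM in RBFOX2-INSCRIBE, against 60.9, 101 and 29.3 CPM in enzyme-only slices (log2 change 3.05). Chn1, a GTPase-activating protein for Rac, had 295, 166 and 203 CPM in RBFOX2-INSCRIBE and 51.6, 46.0 and 19.6 CPM in enzyme-only slices (log2 change 2.48). None of these groups overlapped, and all 3 genes carried over 90% of their reads in 3ʹ-UTRs. Zbtb18, a transcriptional repressor of cortical neurons, rose by 2.37 and Arpp21, a cAMP-regulated phosphoprotein, by 1.15 on the log2 scale. Socs5, a suppressor of cytokine signalling that is named here after its values were seen, rose by 1.52. With every listed site placed by the annotation the changes were smaller, at 1.07 for Trim37, 0.63 for Chn1, 0.70 for Zbtb18 and 0.49 for Arpp21. Slc1a2, the main glutamate transporter of astrocytes, was at 1010.1, 702 and 1095 CPM in RBFOX2-INSCRIBE and 562, 713 and 543 CPM in enzyme-only slices, and it passed at an adjusted p of 0.04995 with overlapping groups.

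**Figure D2:**
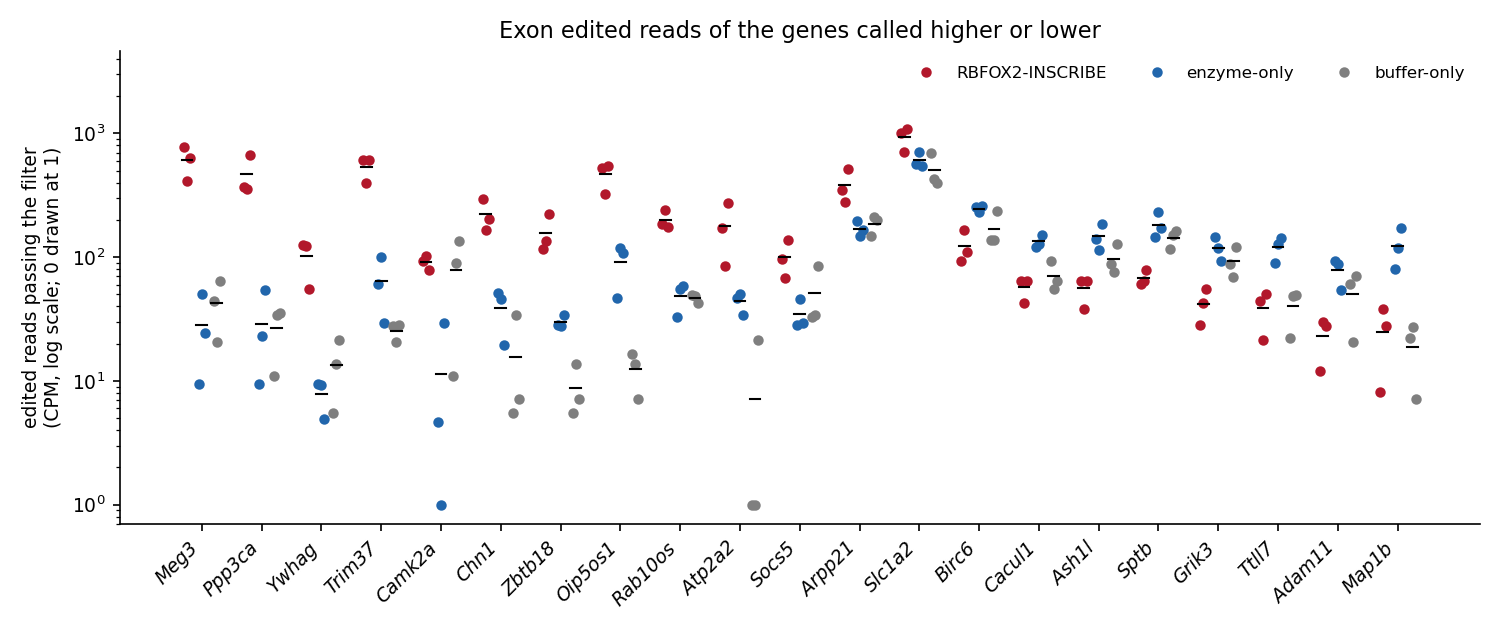
Exon edited reads that passed the filter, in CPM on a log axis (0 drawn at 1), for the 13 genes called higher and the 8 called lower. Points are libraries and bars group means; from Meg3 to Arpp21 every RBFOX2-INSCRIBE library lies above every enzyme-only library, and for Camk2a 1 buffer-only library exceeds all 3 RBFOX2-INSCRIBE libraries.

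These exon rows held more edited reads per site than exon rows at large. In the 13 genes the strongest site held a median of 15.6% of the RBFOX2-INSCRIBE edited reads, and a site held a median of 5.22 reads, against 6.25% and 1.19 reads over all exon rows tested. The 13 genes did not have fewer sites, with a median of 41 edited sites beside 33. In RBFOX2-INSCRIBE the mean cover of a row's passing sites had a median of 222 reads, beside 44.8. Sites of high cover and low edited fraction fail the score, and the part of this in the reads per site was not tested. Pooled over the 13 genes, 21.5% of edited reads were within 50 nt of UGCAUG in RBFOX2-INSCRIBE and 7.05% in enzyme-only slices. In Chn1 the share was 67.9% in RBFOX2-INSCRIBE and 0% in enzyme-only slices, and in Ywhag it was 81.9% and 0%. These values of 0 rest on the score filter, since the printed Chn1 cluster had 42 listed edited reads in enzyme-only slices, none of which passed. Meg3 had 30.0% in RBFOX2-INSCRIBE and 5.56% in enzyme-only slices. In 4 genes the order was the other way, with 13.4% in RBFOX2-INSCRIBE and 16.7% in enzyme-only slices for Ppp3ca, 18.9% and 26.8% for Trim37, 9.02% and 32.1% for Atp2a2, and 0% and 9.09% for Socs5. Camk2a had 0% in both groups. The 13 genes held 22 sites edited in all 3 RBFOX2-INSCRIBE libraries and in no enzyme-only library after the filter, in 6 genes, beside 102 such sites in 81 of all exon rows. Enzyme-only reads that failed the score were listed at some of them, as at the Meg3 and Chn1 sites described next.

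Single sites give the editing level itself, since the lists hold the covering reads. At the Chn1 C before the motif 40, 27 and 39 of 1190, 1110 and 893 covering reads were edited in RBFOX2-INSCRIBE, against 9, 6 and 3 of 1011, 1195 and 811 in enzyme-only slices. Pooled, 3.32% of reads were edited in RBFOX2-INSCRIBE and 0.597% in enzyme-only slices. At the Meg3 site with the highest gain 58, 46 and 36 reads were edited in RBFOX2-INSCRIBE, against 4, 3 and 1 in enzyme-only slices (2.54% and 0.178% of covering reads). Both sites thus differed at like cover. Ppp3ca had 19, 15 and 23 edited reads in RBFOX2-INSCRIBE and 8, 6 and 2 in enzyme-only slices (1.53% and 0.544%). Ywhag had 14, 14 and 7 in RBFOX2-INSCRIBE and 4, 3 and 3 in enzyme-only slices (1.02% and 0.307%). The sites were picked for their gain and carry no test.

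**Figure D3:**
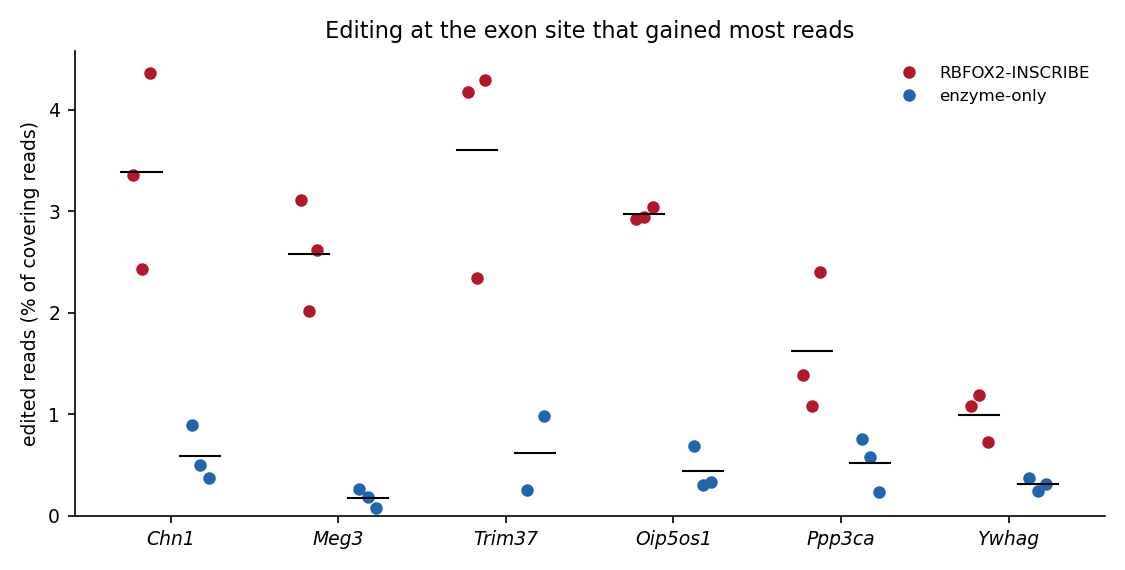
Percent of covering reads that were edited at the exon site with the highest gain in passing reads of 6 genes. Points are the libraries that list the site, 3 per group except 2 enzyme-only libraries for Trim37, and bars are their means; Chn1 lies at 2.43% to 4.37% in RBFOX2-INSCRIBE and at 0.370% to 0.890% in enzyme-only slices.

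The size of the exon changes depended on which sites were counted. Sites with about 1000 covering reads and an edited fraction under about 1% fail the score in enzyme-only slices but carry edited reads there, as the Chn1 and Ppp3ca sites show. With every listed site counted and placed by the annotation, Meg3 had 2049, 1918 and 1676 exon edited reads in RBFOX2-INSCRIBE, against 995, 971 and 922 in enzyme-only slices (log2 change 0.84, adjusted p = 4.71e-12). Ppp3ca had 703, 652 and 621 in RBFOX2-INSCRIBE and 394, 352 and 320 in enzyme-only slices (0.77). Of the 13 exon rows that rose, 9 were called and 12 had a positive change. This setting changed the site filter and the placement together, and with every listed site of the clusters alone 12 of the 13 were called. Ywhag, with 686, 580 and 547 reads in RBFOX2-INSCRIBE and 552, 575 and 442 in enzyme-only slices, was not called (log2 change 0.09, adjusted p = 0.696), nor were Camk2a, Socs5 and Slc1a2. In intron rows, where 251 rose (8.41% of 2985) and 1 fell (0.0335%), 74 of the 75 rows that could be tested were called again, the exception being Map3k13 (adjusted p = 0.0906). With every listed site of the clusters instead, 44 of the 76 were called.

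**Figure D4:**
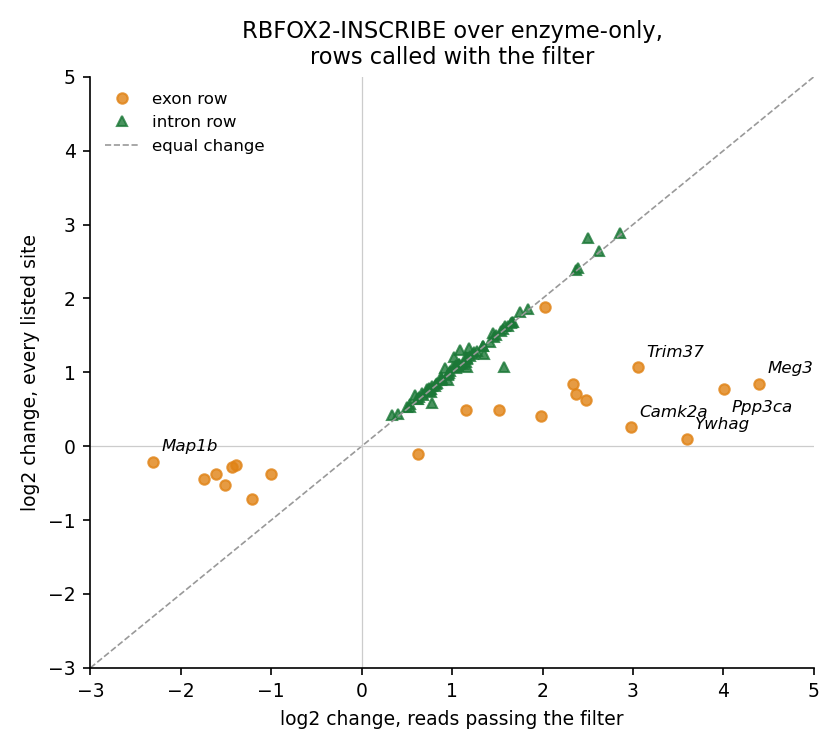
Log2 change of RBFOX2-INSCRIBE over enzyme-only for the rows called with the filter, with passing reads (horizontal) and with every listed site (vertical). Circles are exon rows, triangles intron rows, and the dashed line marks equal change; intron rows lie along the line, and Meg3, at 4.40 and 0.84, lies far below it.

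Counting every listed site, 39 exon rows rose (0.586% of 6655) and 43 fell (0.646%). The genes of this paragraph were chosen after their values were seen. Calm2, one of the genes for calmodulin, had 483, 406 and 372 edited reads in RBFOX2-INSCRIBE and 252, 288 and 211 in enzyme-only slices (log2 change 0.63). Shank1, a scaffold of the postsynaptic density, had 1705, 1554 and 1409 in RBFOX2-INSCRIBE and 1090, 1136 and 912 in enzyme-only slices (0.46). Snap25, a SNARE protein of synaptic vesicle fusion with RBFOX-regulated exons, had 1624, 1155 and 1116 in RBFOX2-INSCRIBE and 934, 1025 and 777 in enzyme-only slices (0.39). With passing reads alone the Snap25 exon change was −0.50, so its direction turned. Their exon cover moved like that of other genes, with log2 ratios of −0.12, −0.14 and −0.15 beside the median of −0.12. Pde10a, Ppp1r1b, Gng7 and Adcy5, all striatal markers, also rose by 0.47 to 1.23, and the cover of Pde10a, Ppp1r1b and Adcy5 was higher as given above. Among the rows that fell was Trf, which encodes transferrin, with 37, 39 and 25 reads in RBFOX2-INSCRIBE and 50, 51 and 49 in enzyme-only slices (−0.69).

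Cover was compared at the same positions and at the sites that passed. At exon positions listed in all 6 libraries, Meg3 and Ppp3ca had cover ratios of RBFOX2-INSCRIBE over enzyme-only of 1.00 and 1.00, Chn1 0.936, Trim37 0.879 and Ywhag 0.878. Over 440 genes the median was 0.920 and the range from the 5th to the 95th percentile 0.829 to 1.03. Arpp21 and the striatal markers differed from this, with a log2 cover ratio of 0.36 for Arpp21 at 7 positions. At the sites that passed in each library, which differ between libraries, the 13 rows had a median cover ratio of 1.78 beside 1.04 over all exon rows. With the mean cover of a row as an offset, 3 of the 13 remained called, and Meg3 had a log2 change of 1.63 (edgeR adjusted p = 0.101). The part of cover in these gains was not tested further.

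The exon rows that fell came from longer genes, with a median span of 129 kb beside 54.5 kb for all exon rows, and their calls were less stable. Map1b, a microtubule-associated protein of growing axons, had 8.08, 38.3 and 27.7 CPM in RBFOX2-INSCRIBE, against 79.7, 120 and 171 CPM in enzyme-only slices and 22.1, 27.5 and 7.11 CPM in buffer-only slices (log2 change −2.31, adjusted p = 0.00166). With every listed site placed by the annotation its change was −0.21 and not called. Sptb, a spectrin of the membrane skeleton, had 60.6, 63.8 and 78.5 CPM in RBFOX2-INSCRIBE and 145, 230.0 and 171 CPM in enzyme-only slices, with 116, 151 and 164 CPM in buffer-only slices. The remaining 6 were Grik3, a kainate receptor subunit (−1.51), Ash1l, a histone methyltransferase (−1.39), Cacul1 (−1.22) and Birc6, an inhibitor of apoptosis (−1.003), and, named after their values were seen, Ttll7 (−1.62) and Adam11 (−1.75). Only Grik3 was called again with every listed site placed by the annotation, against 6 of the 8 with every listed site of the clusters, and only Map1b and Sptb when exons were fitted apart from introns, where 20 exon rows rose (0.434%) and 2 fell (0.0434%). Leaving out 1 library kept 2 to 5 of the 8 calls, with 2 without enzyme-only replicate 2.

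In introns 76 genes rose (2.72%) and 0 fell (0.0%) by the edgeR quasi-likelihood test. At an unadjusted p under 0.05, 549 intron rows (19.6%) were higher and 6 (0.215%) were lower, and the DESeq2 Wald test called 85 higher and 0 lower. All intron rows shifted together, with a median log2 change of 0.28, and 679 (24.3%) had all 3 RBFOX2-INSCRIBE libraries above all 3 enzyme-only libraries against 33 (1.18%) below. With introns scaled by their own totals, 27 of the 76 remained called, among 27 higher (0.978%) and 3 lower (0.109%) in all. Without enzyme-only replicate 1, 17 of the 76 remained, without enzyme-only replicate 2, 29, and without RBFOX2-INSCRIBE replicate 2, 40. With the mean cover of the sites of a row as an offset, 3 remained, although all 76 kept a positive change.

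Among intron rows averaging 20 or more edited reads, the 12 largest rises were spread over receptors, polarity and adhesion proteins and enzymes. Rarb, the retinoic acid receptor beta, had 117, 199.9 and 245 CPM in RBFOX2-INSCRIBE, against 18.7, 18.4 and 39.1 CPM in enzyme-only slices and 11.04, 0 and 0 CPM in buffer-only slices (log2 change 2.85 ± 0.41, adjusted p = 1.41e-05). It is a marker of striatal neurons. Pard3, a scaffold of the cell polarity complex, had 186, 272 and 171 CPM in RBFOX2-INSCRIBE, against 60.9, 69.0 and 68.5 CPM in enzyme-only slices and 116, 27.5 and 64.0 CPM in buffer-only slices (1.66). Map3k13, a kinase upstream of JNK signalling, had 169.7, 166 and 203 CPM in RBFOX2-INSCRIBE and 56.2, 64.4 and 58.7 CPM in enzyme-only slices (1.57). These 3 genes were also called with introns scaled by themselves, and Map3k13 lost its call with every listed site. Another 8 were Spock3, a testican proteoglycan (1.67), Wwox, an oxidoreductase (1.49), Ap4s1, an adaptor of vesicle coats (1.46), Lmo7 (1.46), Arhgap10, a GTPase-activating protein (1.42), Smarcd3, a subunit of the BAF chromatin remodeler (1.35), Sorcs2, a sortilin-family receptor (1.34), and Rbms3, an RNA-binding protein (1.34).

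**Figure D5:**
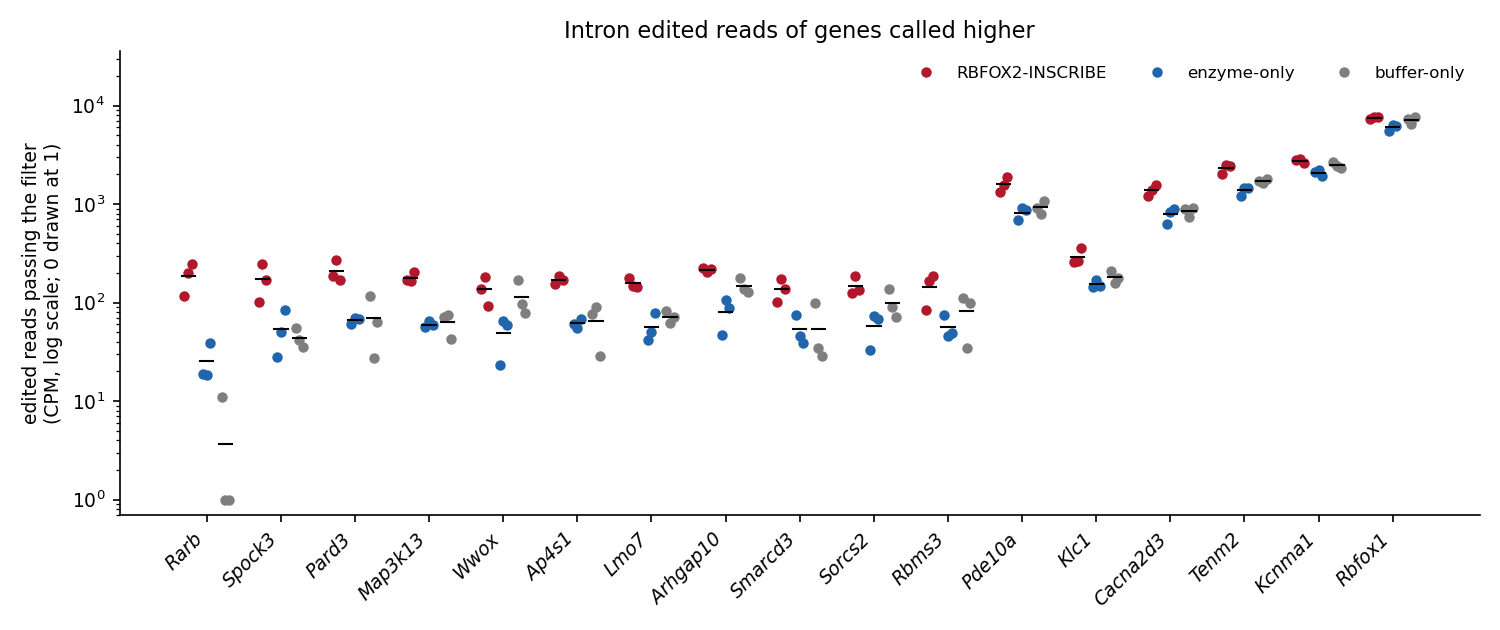
Intron edited reads that passed the filter, in CPM on a log axis (0 drawn at 1), for 11 of the 12 largest rises and 6 further genes with higher levels. Points are libraries and bars group means; all RBFOX2-INSCRIBE libraries lie above all enzyme-only libraries, while buffer-only libraries overlap RBFOX2-INSCRIBE for Wwox and Rbfox1 among others.

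Intron edited reads were spread over many sites, in the 76 genes as in intron rows at large. In the 76 genes the strongest site held a median of 1.54% of the RBFOX2-INSCRIBE edited reads, beside 3.35% over all intron rows tested. The median number of edited sites was 165 beside 65, and a site held a median of 1.11 reads beside 1.09. Sites edited in all 3 RBFOX2-INSCRIBE libraries and in no enzyme-only library after the filter numbered 33, in 15 of the 76 genes. Over all 2796 intron rows there were 145 such sites, in 93 rows. Pooled over the 76 genes, 9.11% of edited reads lay within 50 nt of UGCAUG in RBFOX2-INSCRIBE and 5.16% in enzyme-only slices, near the 6.91% and 4.33% over all intron rows tested. Their genes were long, with a median span of 245 kb beside 90.5 kb for all intron rows. A few differed. Ranbp3l had 96.2% of its RBFOX2-INSCRIBE reads near UGCAUG and 100% of its few enzyme-only reads, Zfp799, a zinc-finger protein, 46.9% and 0%, and Map3k13 40.0% and 10.5%. Ranbp3l was chosen after its values were seen.

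Buffer-only slices bear on these calls. In 63 of the 76 genes the buffer-only mean was above the enzyme-only mean, as in 2091 of all 2796 intron rows, and in 50 of the 76 all 3 RBFOX2-INSCRIBE libraries were above all 3 buffer-only libraries. Among the 13 exon rows that rose, 5 had a buffer-only mean above the enzyme-only mean, and 11 had all RBFOX2-INSCRIBE libraries above all buffer-only libraries. Over all rows tested, RBFOX2-INSCRIBE above all buffer-only libraries held for 304 intron and 315 exon rows.

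Individual intronic clusters with the motif were nonetheless large. In the Tenm2 cluster printed above, edited reads numbered 9, 15 and 26 in RBFOX2-INSCRIBE, against 0, 0 and 0 in enzyme-only and 0, 1 and 0 in buffer-only slices. Tenm2 encodes teneurin-2, a synaptic adhesion protein, and its intron row had 1996, 2518 and 2411 CPM in RBFOX2-INSCRIBE against 1200, 1472 and 1467 CPM in enzyme-only slices (log2 change 0.74, or 0.46 above the intron median). A cluster of Pde10a, the phosphodiesterase of striatal neurons, with 4 copies of the motif had 8, 7 and 20 reads in RBFOX2-INSCRIBE and none in the other slices. The cluster of Snap25 had 9, 16 and 21 in RBFOX2-INSCRIBE and 2, 2 and 1 in enzyme-only slices, and that of Rap1gap, a GTPase-activating protein for Rap1, 16, 13 and 14 in RBFOX2-INSCRIBE and 2, 1 and 1 in enzyme-only slices. In the cluster of Rbfox1, where an RBFOX motif lies in an intron of an RBFOX gene, 14, 30 and 9 reads were edited in RBFOX2-INSCRIBE and 2, 3 and 1 in enzyme-only slices. These clusters were chosen for their gain, so the counts are a description.

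The RBFOX genes themselves changed little. The Rbfox1 intron row, with the most reads, had 7378, 7664 and 7626 CPM in RBFOX2-INSCRIBE, against 5516, 6349 and 6144 CPM in enzyme-only slices and 7296, 6429 and 7616 CPM in buffer-only slices. It was called (log2 change 0.33, adjusted p = 0.0413), but it exceeded the intron median by 0.05, and with introns scaled by themselves the adjusted p was 0.922. Rbfox2 introns were at 687, 893 and 836 CPM in RBFOX2-INSCRIBE and 567, 598 and 470 CPM in enzyme-only slices (0.56, adjusted p = 0.0592), and its exons differed by −0.30 (adjusted p = 0.815). Rbfox3 introns differed by 0.42 (adjusted p = 0.130). Of 36 genes with RBFOX-regulated exons, 31 were tested in exons, where none passed, with 18 positive and a median of 0.12 beside −0.26 over all exon rows. In introns 35 were tested and 2 rose, with a median of 0.26 beside 0.28.

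The study used several genes as brain examples. The exon row of Ppp3r1, the regulatory subunit of calcineurin, had 22, 11 and 35 passing reads in RBFOX2-INSCRIBE, against 8, 7 and 4 in enzyme-only slices and 0, 0 and 1 in buffer-only slices. It did not pass the filter on low counts, and without that filter its log2 change was 1.73 (edgeR adjusted p = 0.0365). No passing intron read carried its name alone. Ppp3ca rose in exons as given above, and so did Ywhag with passing reads only, its exon change being −0.58 with the cover offset. Their intron rows did not pass, with log2 changes of 0.37 (adjusted p = 0.148) and 0.26 (adjusted p = 0.810). Klc1, the light chain 1 of the motor kinesin, rose in introns, with 259, 264 and 356 CPM in RBFOX2-INSCRIBE, against 145, 170.2 and 147 CPM in enzyme-only slices and 210, 158 and 178 CPM in buffer-only slices (0.92 ± 0.23, adjusted p = 0.0306). With introns scaled by themselves its edgeR adjusted p was 0.116. Its exon row, too low for the test, had 1, 3 and 6 reads in RBFOX2-INSCRIBE and 14, 4 and 8 in enzyme-only slices. The buffer-only libraries of Klc1 lay below all RBFOX2-INSCRIBE libraries.

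Intron calls by gene group were few, and each is to be read against the 2.72% over all intron rows. The groups were listed with earlier results of these data known, so their counts carry no test. Of 7 striatal markers tested in introns 5 rose, namely Rarb, Gng7, a G protein gamma subunit (2.37), Rgs9, a regulator of G protein signalling (1.19), Pde10a (0.95) and Adcy5, an adenylyl cyclase (0.78), Rgs9 being named after its values were seen. With introns scaled by themselves 3 of the 5 remained called, without Rgs9 and Adcy5. The median of the 7 was 0.95. RBFOX2-INSCRIBE replicate 3 was highest for Rarb, Gng7, Rgs9, Pde10a and Adcy5. Of 47 synaptic adhesion genes 4 rose, among them Tenm2 and Cntn5, a contactin (0.96). Of 27 calcium-signalling genes 2 rose, Ryr3, a calcium release channel (1.08), and Atp2b1, a calcium pump of the plasma membrane (0.66), of which Ryr3 alone remained called with introns scaled by themselves. Of 16 calcium channel genes 2 rose, Cacnb2, a beta subunit (1.06), and Cacna2d3, an alpha-2-delta subunit (0.82). Of 18 glutamate receptor genes 2 rose, among them Grid1, a delta-type receptor (0.62), and of 22 postsynaptic scaffold genes 2 rose, among them Shank3 (1.02). None of 27 presynaptic genes passed in introns, with a median of 0.14, and none of 19 in exons. The medians of the synaptic adhesion (0.29), calcium-signalling (0.37) and glutamate receptor (0.37) lists were within 0.1 of the 0.28 over all intron rows.

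The exon and intron changes of a gene were compared directly in 1986 genes with both rows, by an interaction term in edgeR with the library as a block. The exon change exceeded the intron change in 5 genes (0.252%), Meg3, Ppp3ca, Ywhag, Camk2a and Trim37, and the intron change exceeded the exon change in 7 (0.352%), Zfp799, Ash1l, Map1b, Mast2, Mrtfa, Map3k13 and Adcy5. The median of exon minus intron change was −0.56, so the first group had to overcome the common shift and the second group moved with it. With each compartment scaled by its own totals the median was near 0, and 12 genes had a larger exon change and none a larger intron change. With every listed site placed by the annotation 0 genes had a larger exon change and 119 a larger intron change, with distinct sites 0 and 19, and with labels of 1 gene or the cover offset no gene differed, so the 5 exon calls hold only under some settings. Meg3 introns were at 121, 89.3 and 69.3 CPM in RBFOX2-INSCRIBE and 75.0, 73.6 and 147 CPM in enzyme-only slices, so the groups overlapped while its exons were apart.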

How the data were processed

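The authors trimmed reads with cutadapt, removed repeat reads, aligned brain reads to mm10 with STAR 2.5.2, called C-to-U sites with SAILOR without known variants, and called edit clusters with FLARE (false discovery rate 0.1, merged within 15 nt). The deposited site lists give counts of edited and covering reads, the edited fraction and a confidence score, and the deposited cluster lists give the gene and compartment label, a score, the depth as signal and other values; the labels name both library kits without saying which was used here. The study fixed brain slices with methanol or paraformaldehyde, and these libraries are labelled as paraformaldehyde-fixed. Lists hold only sites with an edited read. Sites (score above 0.5, fraction below 0.8) were given to the gene and compartment of their cluster's label, and regions and motifs were read from GRCm38 with GENCODE vM21. Every base listed was a C. Counts were tested with edgeR 4.0.16 (R 4.3.3; quasi-likelihood, TMM, filterByExpr, all 9 brain libraries in 1 fit, 1 library size for both compartments). CPM is relative to each library's edited reads in the table after TMM. Library shares were compared by exact permutation. On simulated counts 30% of 2-fold and 85% of 4-fold changes were recovered over 7128 rows, with 4.17% of calls false, and 23% and 83% for the comparison of exon and intron changes in 1986 genes, with 4.50% false. 0 columns were left unused. Members and gene lists were chosen with earlier results of these data known. Genes were named by rule: per compartment the 12 largest rises and 6 largest falls among calls without overlap and with a mean of at least 20 reads, the study's example and RBFOX genes, the 3 lowest p in each list, and up to 6 genes in each direction of the exon against intron comparison. Where a label also named predicted or small-RNA models, these were set aside in favour of the other gene, and reads under labels that still named several genes entered no gene row. An alternative kept only labels with 1 gene. Some genes that this rule names are not reported here.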

Additional observations from a re-analysis of the deposited data

Results flagged for a closer look

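12 genes had exon and intron changes that differed by the interaction test of edgeR (adjusted p under 0.05 of 1986 genes). On the log2 scale, the exon change minus the intron change was 4.46 for Meg3, 3.62 for Ppp3ca, 3.30 for Ywhag, 3.25 for Camk2a and 2.40 for Trim37. It was −2.90 for Zfp799, −2.27 for Ash1l, −2.26 for Map1b, −2.25 for Mast2, −2.23 for Mrtfa, −2.18 for Map3k13 and −2.16 for Adcy5. With each compartment scaled by its own totals, an alternative added after seeing the data, the 7 genes of the second group lost the call (adjusted p 0.0515 for Ash1l and 0.1076 to 0.1708 for the others), while Meg3, Ppp3ca, Ywhag, Camk2a and Trim37 kept it. These 5 lost it with every listed site placed by annotation, where 0 genes had a larger exon change and 119 a larger intron change, with distinct sites, where the numbers were 0 and 19, and with labels of 1 gene and the cover offset, where no gene differed.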

How the results depend on the processing

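Counts below are exon rows higher and lower, intron rows higher and lower, and genes whose exon and intron changes differ, against 13, 8, 76, 0 and 12. The DESeq2 Wald test gave 6, 1, 85, 0 and 3, no filter on low counts 29, 13, 80, 0 and 3, the 6 compared libraries alone 17, 14, 81, 0 and 20, every listed site in clusters 21, 7, 45, 0 and 8, a cover of at least 20 reads 13, 4, 60, 0 and 9, distinct sites 3, 16, 103, 0 and 19, the offset of mean cover 3, 2, 3, 0 and 0, and compartments fitted apart 20, 2, 27 and 3. Of alternatives added after seeing the data, every listed site placed by annotation gave 39, 43, 251, 1 and 119 (all 119 with the larger intron change, against 5 with the larger exon and 7 with the larger intron change) and labels with 1 gene 12, 5, 41, 0 and 0. Leaving out 1 library gave 11 to 24, 3 to 19, 17 to 76, 0 to 0 and 2 to 19: exon rises numbered 24 without RBFOX2-INSCRIBE replicate 2, exon falls 19 without RBFOX2-INSCRIBE replicate 3 and 3 without enzyme-only replicate 1, and intron rises 17 without enzyme-only replicate 1, 31 without enzyme-only replicate 2 and 43 without RBFOX2-INSCRIBE replicate 2. For shares, leaving out 1 library gave differences of −0.723 to 1.94 percentage points for the exon A or U context share and −0.7265 to 1.94 for the 3' UTR share of exon edited reads, which was −0.163 with every listed site. Rbfox2 exons were at 0.22 and Slc1a2 exons at −0.10 with every listed site placed by annotation, Ywhag exons at −0.58 with the cover offset and Ywhag introns at −0.0339 when fitted apart. The cause of these changes was not tested, except that fewer libraries or genes enter some fits.

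Same-numbered slices share only a number: their deviations correlated by −0.00228, 0.05445 and 0.00261. With the replicate block edgeR called 12, 6, 58, 0 and 16. Within replicate numbers the smallest permutation p is 0.25.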
